A study of Mus musculus with 6 samples.

Results

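The inhibitory receptors and anergy genes examined here are 10 named genes of T cells, taken from an array experiment on mouse iNKT cells. They comprise the receptors Pdcd1, Lag3, Ctla4, Havcr2 and Btla, the ligand Cd200, the nuclear factors Tox and Tox2, and the anergy-associated genes Izumo1r and Rnf128. Each was found as an array row whose only gene symbol is that name, and each had 1 such row, so that 10 of 22180 measured genes are described. All values are deposited log2 expression levels, on which a difference of 1 is a doubling, and none was left out for low signal.

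Invariant natural killer T (iNKT) cells recognise lipids on CD1d through a T cell receptor of little diversity, and their development requires PLZF, a zinc finger transcription factor whose gene is Zbtb16. The study compared iNKT cells of mice that express a constitutively acetylated form of PLZF (PLZF_ON) with those of control mice (WT), with 3 arrays per group. The design text names replicates 1 and 2 of each group as the arrays analysed, and these 4 arrays give the main comparison. The difference over all 6 arrays is given beside that of each of the 10 genes and of most genes named with them. The sources used here do not give the organ, the sort, the age of the animals, the strain or the promoter that drives the PLZF form, and RNA is said to come from frozen tissue. Whether replicates were separate animals is not stated either. The p-values therefore reflect the spread among these arrays alone, and that spread may be technical.

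Inhibitory receptors are induced by T cell receptor signalling and restrain it, mostly by bringing tyrosine phosphatases to the receptor complex. Anergy is a state of reduced response that follows stimulation without costimulation, and it involves ubiquitin ligases and diacylglycerol kinases. TOX proteins are HMG-box factors of developing and chronically stimulated T cells, and TOX is known to be needed for the development of CD4 T cells and NKT cells in the thymus.

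PLZF_ON replicate 3 stood apart from the other arrays. Its correlations with the other 5 arrays across rows were 0.895 to 0.898, its SD over rows was 1.79 against 1.97 to 2.01, and its rows of olfactory and vomeronasal receptors had a median of 3.39 against 2.88 to 2.99. Of 5 listed immature thymocyte markers 4 were measured, and their summed level on the log2 scale was 9.99 on that array, against 6.66 to 6.80 in WT and 6.58 and 6.74 in PLZF_ON replicates 2 and 1. Cd24a was at 9.58 there and at 4.41 to 5.27 elsewhere, Dntt at 7.19 against 3.46 to 4.10, and Cd8b1 at 7.77 against 5.08 to 5.89. The 4 measured T cell and iNKT markers, Cd3d, Cd3e, Cd3g and Zbtb16, summed to 12.17 on it and to 12.80 to 12.96 on the others. The part of these shifts in the levels of the 10 genes was not tested, and the values of the 10 genes are given with and without that array.

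**Figure D1:**
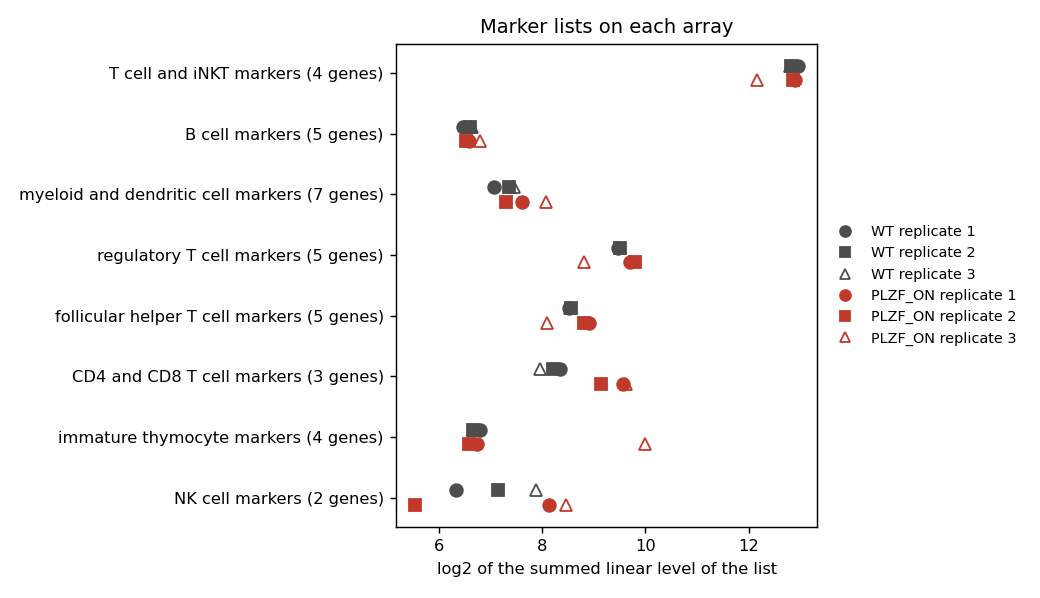
Summed levels of marker lists (x axis, log2 of the sum of linear levels over the measured genes of each list) on each array, with WT in grey, PLZF_ON in red and replicate 3 as open triangles. PLZF_ON replicate 3 lies at 9.99 for immature thymocyte markers, with the other arrays between 6.58 and 6.80. The 3 PLZF_ON arrays lie above the 3 WT arrays for the sum of CD4 and CD8 markers, whose brightest gene is Cd4. Cd8a and Cd8b1 had 4-array differences of -0.25 and -0.01.

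Markers of cells that carry these receptors in other settings were set beside the results. The 5 measured B cell markers summed to 6.46 to 6.64 in WT and to 6.52 to 6.79 in PLZF_ON. Of these only Pax5 exceeded on any array the limit of 5.20, which is the 95th percentile of the row means over 1405 olfactory and vomeronasal receptor rows and is used here as a mark of background signal. The 5 regulatory T cell markers summed to 9.47 and 9.51 in WT replicates 1 and 2 and to 9.70 and 9.80 in PLZF_ON replicates 1 and 2, while Foxp3 itself was between 5.02 and 5.14 on these 4 arrays, below the limit. On the replicate 3 arrays that sum was 9.51 in WT and 8.80 in PLZF_ON. Ikzf2 was the brightest of the 5 (mean 9.05) and differed by 0.31 over the 4 arrays. Gpr83 differed by 0.85 (limma adjusted p = 0.152), Ikzf4 by 0.35 (0.551), Il2ra by -0.31 and Foxp3 by -0.02, with 3 of the 5 higher and 2 lower. The WT means of Gpr83 and Ikzf4 on the 4 arrays were 4.37 and 5.07, below the limit. Over 6 arrays their differences were 0.50 (limma adjusted p = 0.926) and 0.49 (0.672). The 5 follicular helper markers summed to 8.51 and 8.56 in WT and to 8.91 and 8.80 in PLZF_ON on replicates 1 and 2. On the replicate 3 arrays they summed to 8.54 in WT and 8.10 in PLZF_ON. Their brightest gene was Sh2d1a, with a 4-array difference of 0.27. Bcl6 differed by 0.78 (limma adjusted p = 0.148), Cxcr5 by 0.32, Il21 by 0.09 and Ascl2 by -0.13, with 4 of the 5 higher and 1 lower. Over 6 arrays Bcl6 differed by 0.33 (limma adjusted p = 0.941), with 2 of the 5 higher and 3 lower. The 7 myeloid and dendritic cell markers summed to 7.07 to 7.46 in WT and to 7.29 to 8.08 in PLZF_ON. The 2 NK cell markers measured summed to 6.32 to 7.88 in WT and, in PLZF_ON replicates 1 to 3, to 8.13, 5.54 and 8.46. Cd4, the coreceptor carried by part of the iNKT cells, was at 7.56 to 8.01 in WT and at 8.90 to 9.46 in PLZF_ON, so it was higher on all 3 PLZF_ON arrays, and its row had a limma adjusted p of 0.115 over the 4 arrays. No list had a row at 0, and the part of these cell types in the results below was not tested. In bulk samples such as these, fewer cells of a type and less RNA per cell cannot be told apart.

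The sequences just before the transcription start are shown for the 3 genes with the most marked higher levels that have an entry, and for Izumo1r, so that the differences below can be read beside them. They are RefSeq promoter windows of the 250 bases before the start, which were found for 8 of the 10 genes, without Lag3 and Tox. Capitals mark matches on either strand to 4 motifs chosen with results known. These were the NFAT core GGAAA, the AP-1 site TGANTCA, the cAMP response element TGACGTCA and the NR4A element AAAGGTCA. N stands for any base, and matches of a motif may overlap those of another.
Cd200, GRCm38.p6 chr16:45409054-45409303, minus strand: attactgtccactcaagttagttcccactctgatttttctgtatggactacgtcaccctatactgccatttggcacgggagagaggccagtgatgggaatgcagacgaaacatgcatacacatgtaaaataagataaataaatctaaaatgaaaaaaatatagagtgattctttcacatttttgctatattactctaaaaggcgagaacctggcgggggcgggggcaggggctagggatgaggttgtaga
Btla, GRCm38.p6 chr16:45224087-45224336, plus strand: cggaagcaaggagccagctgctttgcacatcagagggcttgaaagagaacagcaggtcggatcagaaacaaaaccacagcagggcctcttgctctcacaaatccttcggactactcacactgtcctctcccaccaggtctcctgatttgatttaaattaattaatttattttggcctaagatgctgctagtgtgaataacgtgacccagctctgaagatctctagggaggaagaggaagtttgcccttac
Pdcd1, GRCm38.p6 chr1:94052554-94052803, minus strand: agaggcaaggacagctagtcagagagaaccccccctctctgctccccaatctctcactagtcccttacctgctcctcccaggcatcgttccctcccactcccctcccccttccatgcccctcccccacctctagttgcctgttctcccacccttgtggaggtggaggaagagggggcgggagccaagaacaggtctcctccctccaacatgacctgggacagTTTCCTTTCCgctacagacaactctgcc
Izumo1r, GRCm38.p6 chr9:14903768-14904017, minus strand: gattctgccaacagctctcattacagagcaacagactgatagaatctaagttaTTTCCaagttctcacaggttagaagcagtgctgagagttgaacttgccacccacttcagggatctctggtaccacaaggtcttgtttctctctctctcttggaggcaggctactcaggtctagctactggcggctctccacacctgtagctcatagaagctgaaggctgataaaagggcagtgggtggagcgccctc
The Pdcd1 window held 2 matches to the NFAT core, side by side near the start, and the Izumo1r window held 1. The Cd200 and Btla windows held 0 of the 4 motifs. Among genes whose windows are not shown, Rnf128 held 2 NFAT cores, Ctla4 held 1, and Havcr2 held 0 but 1 AP-1 site. These genes had lower means in PLZF_ON over the 4 arrays. Tox2 has several windows, each with 0 or 1 NFAT core. Among all 32851 windows of this length, 55.6% held the NFAT core, 6.7% the AP-1 site, 1.5% the cAMP response element and 1.3% the NR4A element. The GC content was 42.4% for Cd200, 47.2% for Btla, 60.4% for Pdcd1 and 50.0% for Izumo1r. These are matches of letters in short windows and describe no binding.

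Over the 4 arrays, 7 of the 10 genes had higher and 3 lower mean levels in PLZF_ON, and none passed limma's test adjusted over all 23521 rows (Benjamini-Hochberg, adjusted p from 0.0986 to 0.744). Of all rows 0.17% passed. An unadjusted limma p under 0.05 was reached by 6 of the 10, which were Cd200, Pdcd1, Tox, Btla, Tox2 and Izumo1r. All were higher in PLZF_ON and 0 were lower. Of all rows 9.41% reached it, 4.88% as higher and 4.53% as lower. The 2 arrays of each group did not overlap for 9 of the 10 (6 higher and 3 lower), against 38.2% of all rows (18.9% higher and 19.3% lower). The 3 lower ones, Ctla4, Havcr2 and Rnf128, were below the background limit described above in both groups. The median log2 difference of the 10 was 0.67, and that of all rows 0.00.

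**Figure D2:**
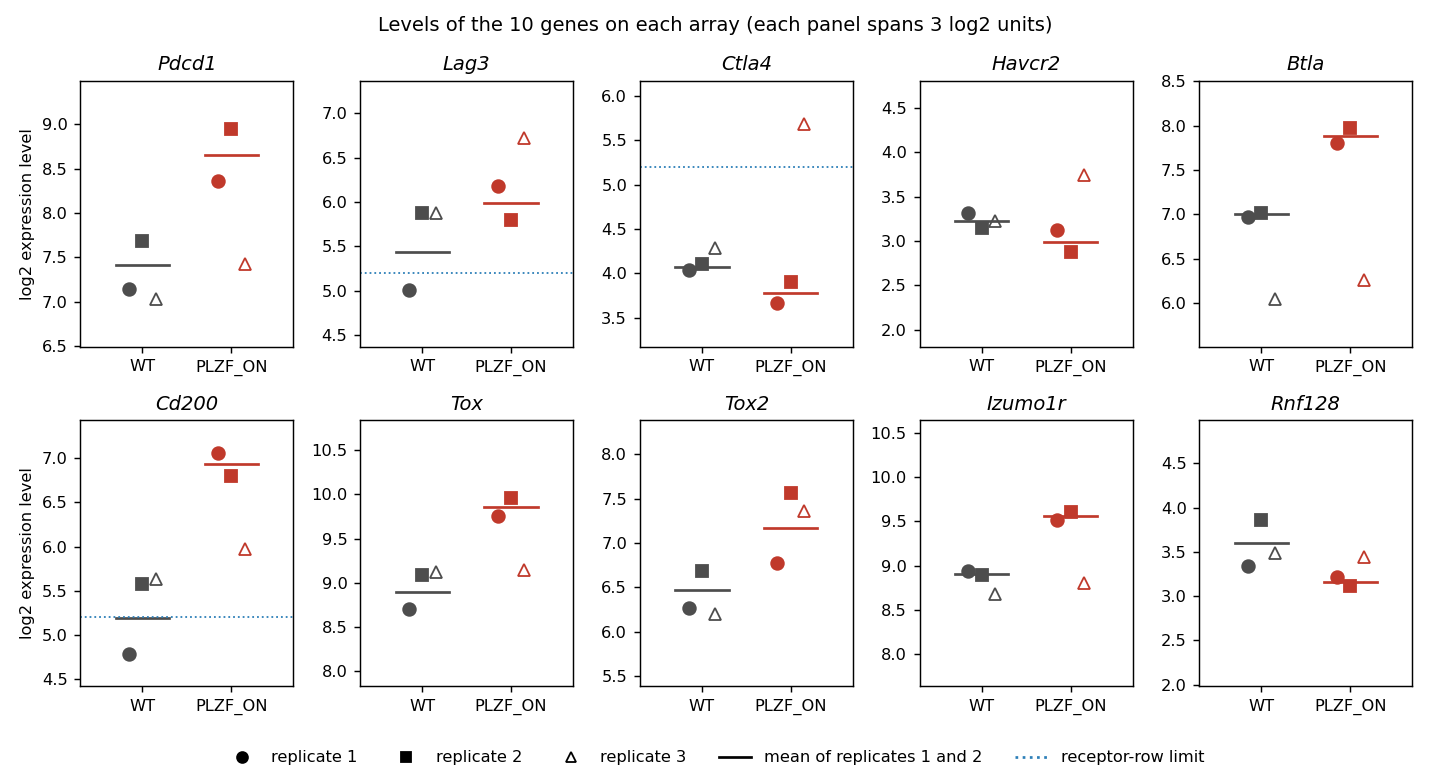
Level of each gene (y axis, log2 expression, every panel spanning 3 units) on each WT (grey) and PLZF_ON (red) array, with replicate 3 as open triangles, the mean of replicates 1 and 2 as a bar and the background limit of 5.20 as a dotted line where it falls in the panel. For Cd200, Btla, Pdcd1, Tox and Izumo1r PLZF_ON replicates 1 and 2 lie above all WT arrays, and PLZF_ON replicate 3 lies below both.

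Among the receptors, Pdcd1 encodes PD-1, which binds PD-L1 and PD-L2 and recruits the phosphatase SHP-2. On WT arrays its log2 level was 7.14, 7.68 and 7.03, and on PLZF_ON arrays it was 8.36, 8.95 and 7.43, both in the order of replicates 1 to 3. PLZF_ON replicates 1 and 2 were above every WT array, and replicate 3 fell inside the WT range. Over the 4 arrays PLZF_ON exceeded WT by 1.24 (log2), which is 2.36-fold (SE 0.26, n = 2 arrays in each group, 95% interval 0.60 to 1.88, limma adjusted p = 0.186). It was 0.95 to 1.54 when any of the 4 arrays was left out, and 0.96 over all 6 arrays (SE 0.37, limma adjusted p = 0.783).

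Btla encodes a receptor that binds HVEM, the product of Tnfrsf14. It was at 6.97, 7.02 and 6.04 on the WT arrays and at 7.81, 7.97 and 6.26 on the PLZF_ON arrays, in the same order. The groups were apart on replicates 1 and 2, with SDs of 0.04 in WT and 0.11 in PLZF_ON, while both replicate 3 arrays were lower than every other array. The 4-array difference was 0.89, or 1.86-fold (SE 0.14, 95% interval 0.56 to 1.22, limma adjusted p = 0.0986). Over all 6 arrays it was 0.67 (SE 0.47, limma adjusted p = 0.941). Btla thus had the smallest p of the 10 over the 4 arrays, and its interval over 6 included 0 (-0.42 to 1.77).

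Lag3 encodes a CD4-related receptor for MHC class II. Its level was 5.01, 5.87 and 5.87 in WT and 6.18, 5.80 and 6.72 in PLZF_ON, in the order of replicates. The groups overlapped, since PLZF_ON replicate 2 lay below 2 of the WT arrays. The 4-array difference was 0.55 (SE 0.30, 95% interval -0.18 to 1.28, limma adjusted p = 0.678), and it ran from 0.12 to 0.98 with an array left out. Over 6 arrays it was 0.65 (SE 0.31, limma adjusted p = 0.919).

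Ctla4 encodes the receptor that competes with CD28 for CD80 and CD86, and Havcr2 encodes TIM-3, a receptor of terminally differentiated T cells. Ctla4 was at 4.04, 4.10 and 4.28 in WT and at 3.66, 3.90 and 5.68 in PLZF_ON. Havcr2 was at 3.31, 3.15 and 3.22 in WT and at 3.12, 2.87 and 3.74 in PLZF_ON. For both genes PLZF_ON replicates 1 and 2 were the lowest arrays and PLZF_ON replicate 3 the highest. All of these values except that of Ctla4 on PLZF_ON replicate 3 were below the background limit, and on that array the receptor rows themselves had a 95th percentile of 5.65. The 4-array differences were -0.29 for Ctla4 (95% interval -0.64 to 0.07, limma adjusted p = 0.65) and -0.24 for Havcr2 (95% interval -0.61 to 0.13, limma adjusted p = 0.744). Over 6 arrays the differences had the opposite sign, at 0.27 for Ctla4 (limma adjusted p = 0.951) and 0.02 for Havcr2 (0.993). Neither level was shown to be above background in either group of the 4 arrays, so no fold is given.

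Cd200 encodes a surface ligand of the inhibitory receptor CD200R1. Levels on the WT arrays were 4.79, 5.58 and 5.63, and those on the PLZF_ON arrays 7.06, 6.80 and 5.97. All 3 PLZF_ON arrays were above all 3 WT arrays, with replicate 3 the nearest to WT. The 4-array difference was 1.74, or 3.34-fold (SE 0.27, 95% interval 1.08 to 2.40, limma adjusted p = 0.102). Since the WT mean of 5.19 was at the background limit, the fold against that limit was 3.32. Over 6 arrays the difference was 1.27 (SE 0.34, 95% interval 0.49 to 2.05, limma adjusted p = 0.417). Without WT replicate 2 it was 2.14 over the other 3 arrays and passed the test (limma adjusted p = 0.017), with a single WT array that is assumed to vary like the PLZF_ON arrays. The adjusted p otherwise ran up to 0.318 with an array left out.

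Tox was at 8.71, 9.09 and 9.12 in WT and at 9.76, 9.96 and 9.14 in PLZF_ON. PLZF_ON replicate 3 thus lay within 0.02 of WT replicate 3, and the other PLZF_ON arrays were clear of WT. The 4-array difference was 0.96, or 1.95-fold (SE 0.18, 95% interval 0.53 to 1.39, limma adjusted p = 0.148), and over 6 arrays it was 0.65 (SE 0.24, limma adjusted p = 0.764). Tox2, a related factor known from follicular helper T cells, was at 6.27, 6.68 and 6.20 in WT and at 6.78, 7.57 and 7.36 in PLZF_ON. Its groups did not overlap over all 6 arrays, although PLZF_ON replicate 1 was close to WT replicate 2. The 4-array difference of Tox2 was 0.70 (SE 0.29, limma adjusted p = 0.53), and it was 0.85 over 6 arrays (SE 0.24, limma adjusted p = 0.496). With an array left out of the 4 it ran from 0.30 (without PLZF_ON replicate 2, limma adjusted p = 0.856) to 1.09 (without PLZF_ON replicate 1). Tox3 and Tox4, the other members of the family, had 4-array differences of -0.07 (limma adjusted p = 0.947) and 0.04 (0.97), and of the opposite sign over 6 arrays, at 0.16 (0.956) and -0.35 (0.941). The 4-array means of Tox3, 5.11 in WT and 5.04 in PLZF_ON, were below the background limit.

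Izumo1r encodes folate receptor 4, a surface marker of anergic and regulatory CD4 T cells. Its level was 8.94, 8.89 and 8.68 in WT and 9.52, 9.60 and 8.80 in PLZF_ON. Replicates within each group lay close together on the 4 arrays, and PLZF_ON replicate 3 was inside the WT range. The difference was 0.65, or 1.57-fold (SE 0.13, 95% interval 0.33 to 0.97, limma adjusted p = 0.171), and it was 0.61 to 0.69 with any array left out. Over 6 arrays it was 0.47 (SE 0.23, limma adjusted p = 0.92). Rnf128 encodes GRAIL, a ubiquitin ligase induced in anergic T cells. It was at 3.34, 3.86 and 3.49 in WT and at 3.22, 3.11 and 3.44 in PLZF_ON, below the background limit on all 6 arrays. Its difference was -0.44 (95% interval -0.92 to 0.05, limma adjusted p = 0.595), and -0.31 over 6 arrays (limma adjusted p = 0.941).

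Over all 6 arrays, 9 of the 10 genes had a higher mean in PLZF_ON and none passed limma's adjusted test (smallest adjusted p = 0.417), where 0.0935% of all rows passed. An unadjusted p under 0.05 was reached by 4 of the 10, namely Cd200, Tox2, Tox and Pdcd1, all as higher, against 5.77% of all rows and 2.45% as higher. The groups did not overlap for 3, Cd200, Tox and Tox2, each higher, against 11.8% of all rows (5.55% higher and 6.22% lower). The SE of Btla grew from 0.14 to 0.47 between the fits and that of Ctla4 from 0.15 to 0.48. With PLZF_ON replicate 3 alone left out, 7 of the 10 reached an unadjusted p under 0.05, as did 2281 of all 23521 rows, and the differences were 1.59 for Cd200 (limma adjusted p = 0.0693), 1.37 for Pdcd1 (0.09), 0.73 for Izumo1r (0.0938), 0.88 for Tox (0.103), 1.21 for Btla (0.192) and 0.79 for Tox2 (0.354). The other was Ctla4, with a difference of -0.36 in that fit (0.479).

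**Figure D3:**
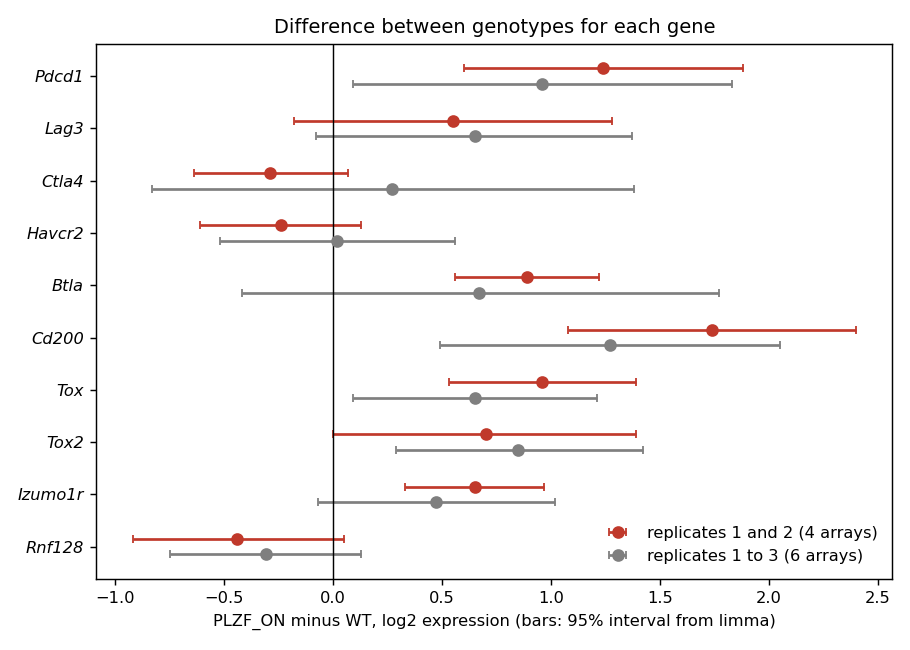
Difference between PLZF_ON and WT for each gene (x axis, log2 expression) over replicates 1 and 2 in red and over all 6 arrays in grey, with limma's 95% interval. Over 4 arrays the intervals of Cd200, Pdcd1, Tox, Btla, Izumo1r and Tox2 lie above 0, and over 6 arrays those of Cd200, Tox2, Tox and Pdcd1 do.

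Within replicate number 3, PLZF_ON minus WT was 1.40 for Ctla4, 1.16 for Tox2, 0.85 for Lag3, 0.53 for Havcr2 and 0.40 for Pdcd1. It was 0.33 for Cd200, 0.23 for Btla, 0.12 for Izumo1r, 0.02 for Tox and -0.05 for Rnf128. The genes with large differences on replicates 1 and 2 thus showed small ones here, apart from Tox2, and these values have no replicate.

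The ligands, partner receptors and signalling proteins of these receptors were examined as lists chosen with earlier results known. Over the 4 arrays 4.88% of all rows had an unadjusted p under 0.05 as higher and 4.53% as lower. Over 6 arrays these shares were 2.45% and 3.32%, to be set beside the counts of each list below. Of 11 ligands and partner receptors, 0 passed limma over all rows on the 4 arrays, and 1 had an unadjusted p under 0.05 as higher and 1 as lower. Cd200r1, the receptor of CD200, was higher by 0.94 (SE 0.18, limma adjusted p = 0.148), with a WT mean of 4.26 and a PLZF_ON mean of 5.20, no higher than the background limit. Lgals3, which encodes galectin-3, a lectin reported to bind LAG-3, had a difference of -0.55 (limma adjusted p = 0.238). The differences were -0.07 for Cd274 (PD-L1; limma adjusted p = 0.975), 0.24 for Tnfrsf14 (0.743) and 0.21 for Lgals9 (0.771). Over 6 arrays they were 0.71 for Cd200r1 (limma adjusted p = 0.528), -0.58 for Lgals3 (0.452), -0.16 for Cd274 (0.965), 0.25 for Tnfrsf14 (0.941) and -0.16 for Lgals9 (0.955), so that Lgals9 turned.

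Other inhibitory receptors had mostly lower levels in PLZF_ON, with 7 of 11 below WT and a median difference of -0.61. Only 5 of the 11 were above the background limit on all arrays. Tigit, which was lower, and Lair1, Klrg1 and Lilrb4a, which were higher, were above it on none. By limma 0 of the 11 passed over all rows, 5 had an unadjusted p under 0.05 as lower and 1 as higher. Of all rows 4.53% reached that p as lower and 4.88% as higher. Entpd1 encodes the ectonucleotidase CD39, an enzyme rather than a receptor, and was counted in this list. It had a difference of -1.19 (SE 0.19, limma adjusted p = 0.11), from a WT mean of 6.29 to a PLZF_ON mean of 5.09, below the background limit. Cd96 had a difference of -0.90 (limma adjusted p = 0.167) and Cd160, another receptor for HVEM, one of -0.67 (0.371). Cd5, a negative regulator of T cell receptor signalling, was higher by 0.77 (0.198). Over 6 arrays the median of this list was -0.51, 5 of the 11 had an unadjusted p under 0.05, all lower, and the differences were -1.08 for Entpd1 (limma adjusted p = 0.14), -1.11 for Cd96 (0.153), -1.01 for Cd160 (0.648) and 0.51 for Cd5 (0.888). Among 6 phosphatases and adaptors that act below such receptors, 0 passed and 3 had an unadjusted p under 0.05, all lower. They were Ptpn6, which encodes SHP-1, at -0.46 (limma adjusted p = 0.434), Ptpn22 at -0.51 (0.521) and Inpp5d, which encodes SHIP-1, at -0.39 (0.505). Ptpn11, which encodes SHP-2, had a difference of 0.32 (0.75). Over 6 arrays 1 of the 6 had an unadjusted p under 0.05, and the differences were -0.60 for Ptpn6 (limma adjusted p = 0.713), -0.65 for Ptpn22 (0.865), -0.64 for Inpp5d (0.909) and 0.17 for Ptpn11 (0.949).

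Of 13 other anergy genes measured, 0 passed, 4 had an unadjusted p under 0.05 as higher and 2 as lower. Each was counted by its brightest row, which for Dgkz, a diacylglycerol kinase gene, had a difference of 0.20 (limma adjusted p = 0.867). A dimmer row of Dgkz had 0.84 (limma adjusted p = 0.167). Over 6 arrays the brightest row of Dgkz had -0.09 (limma adjusted p = 0.969) and the dimmer one 1.82 (0.515). Egr2 and Egr3, transcription factors of the anergy programme, were higher by 0.97 (SE 0.13, limma adjusted p = 0.075) and 0.47 (0.369), and Dgka, a diacylglycerol kinase, by 0.68 (0.166). The ubiquitin ligase Nedd4 had a difference of -1.03 (SE 0.15, limma adjusted p = 0.0854). Over 6 arrays 2 of the 13 had an unadjusted p under 0.05 as higher and 2 as lower, and the differences were 0.79 for Egr2 (limma adjusted p = 0.435), 0.16 for Egr3 (0.951), 0.68 for Dgka (0.311) and -1.31 for Nedd4 (0.31).

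Of 14 other regulators of exhausted T cells measured, 0 passed, 5 had an unadjusted p under 0.05 as higher and 2 as lower. Irf4 was higher by 1.39 (SE 0.18, limma adjusted p = 0.0739), Nr4a1 by 0.94 (0.128) and Bcl6 by 0.78 (0.148), while Tbx21, which encodes T-bet, had a difference of -1.53 (SE 0.24, limma adjusted p = 0.102). Over 6 arrays 2 of the 14 had an unadjusted p under 0.05 as higher and 1 as lower. There the differences were 0.88 for Irf4 (limma adjusted p = 0.884), 0.86 for Nr4a1 (0.603), 0.33 for Bcl6 (0.941) and -1.35 for Tbx21 (0.142). On the replicate 3 arrays both Irf4 and Bcl6 were lower in PLZF_ON, since Irf4 had a level of 5.57 against 5.72 in WT and Bcl6 one of 5.84 against 6.41.

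Among 9 costimulatory receptors 1 passed over all rows. Cd226, an activating receptor that competes with CD96 and TIGIT for nectin family ligands, fell by 1.60 (log2; SE 0.16, limma adjusted p = 0.0426) and, over 6 arrays, by 1.74 (limma adjusted p = 0.0454). Its level was 9.48, 9.18 and 9.23 in WT and 7.84, 7.62 and 7.20 in PLZF_ON, so that the groups were well apart. Over the 4 arrays the call was lost without WT replicate 1 (a difference of -1.45, limma adjusted p = 0.0866), PLZF_ON replicate 1 (-1.70, 0.0925) or PLZF_ON replicate 2 (-1.49, 0.241). Over 6 arrays it was kept only without PLZF_ON replicate 3 (-1.56, limma adjusted p = 0.0148), the others giving -1.65 to -1.88 with adjusted p of 0.0754 to 0.303. Cd28 was higher by 0.64 (limma adjusted p = 0.192) and Tnfrsf4, which encodes OX40, by 0.39 (0.471), and over 6 arrays they were at 0.35 (limma adjusted p = 0.941) and 0.40 (0.868). The list as a whole had a median difference of 0.22 over the 4 arrays and -0.04 over 6.

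**Figure D4:**
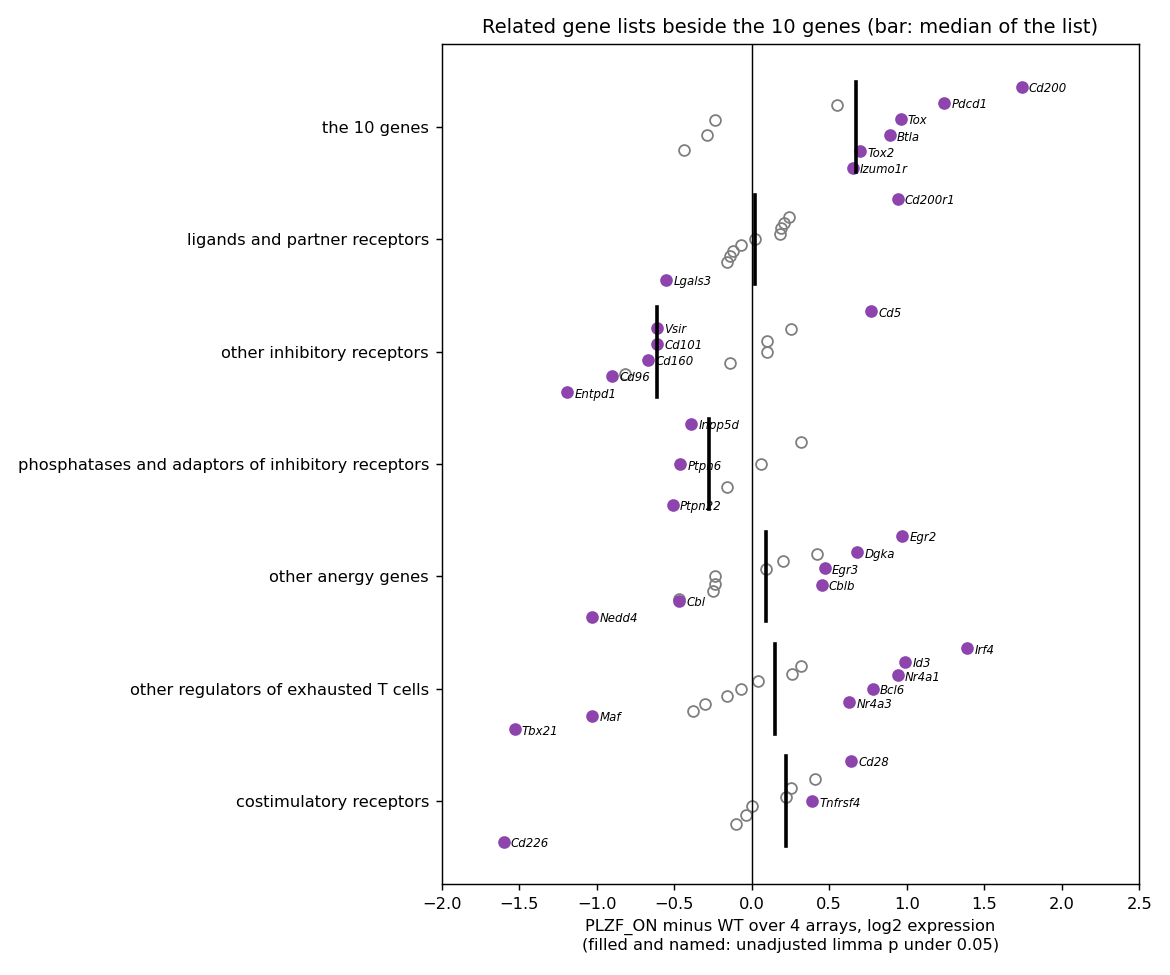
Differences between PLZF_ON and WT over the 4 arrays (x axis, log2 expression) for the 10 genes and 6 related lists, where each circle is a gene, filled and named where its unadjusted limma p is under 0.05, and the bar is the median of the list. The medians are 0.67 for the 10 genes and -0.61 for the other inhibitory receptors.

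Neighbouring genes were compared by their order in the RefSeq gene table of GRCm38.p6. Btla and Cd200 lie next to each other among tested genes on chromosome 16, with 0 tested genes between them. Atg3, on the other side of Btla, had a difference of 0.31 (limma adjusted p = 0.602) and Gm609, beyond Cd200, one of -0.08 (0.935). Gm609 was below the background limit in both groups, with means of 3.85 in WT and 3.76 in PLZF_ON. Of the 18 neighbours of the 10 genes that are not among them, 0 passed the adjusted test, 4 had an unadjusted p under 0.05 as higher and 1 as lower. Of all rows 4.88% reached that p as higher and 4.53% as lower. Lag3 on chromosome 6 lies between Cd4, higher by 1.28 (SE 0.21, limma adjusted p = 0.115), and Ptms, which encodes parathymosin, higher by 0.85 (SE 0.13, 0.0986). Lag3 itself, with 0.55, had an interval that included 0. On chromosome 1 Ctla4 lies between Cd28, given above, and Icos, whose difference was -0.04 (limma adjusted p = 0.97). Izumo1r on chromosome 9 lies beside Gpr83, a G protein-coupled receptor known from regulatory T cells, which was higher by 0.85 (0.152) from a WT mean of 4.37, below the background limit, to 5.22. Nsmaf, next to Tox on chromosome 4, had a difference of -0.38 (0.526). The neighbours of Pdcd1, Neu4 and 4930440C22Rik, had differences of -0.04 and -0.06, the second with means of 2.70 in WT and 2.64 in PLZF_ON, below the background limit. Over 6 arrays the differences were 1.30 for Cd4 (limma adjusted p = 0.124), 0.85 for Ptms (0.143), 0.50 for Gpr83 (0.926), 0.17 for Atg3 (0.941), -0.20 for Icos (0.941) and -0.42 for Nsmaf (0.92).

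**Figure D5:**
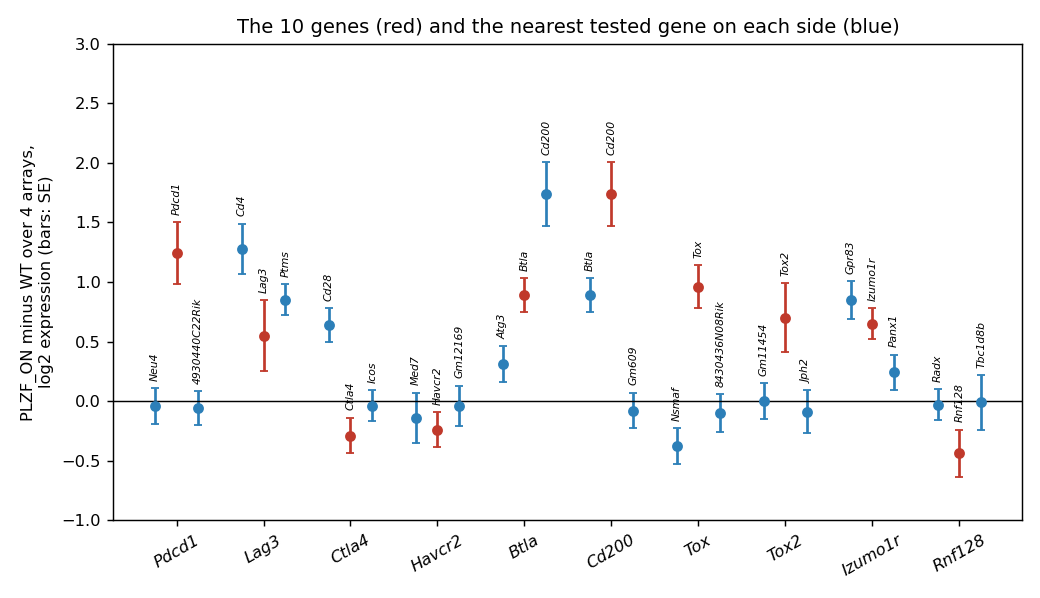
Differences between PLZF_ON and WT over the 4 arrays (y axis, log2 expression, bars SE) for each of the 10 genes in red and the nearest tested gene on each side in blue. Cd200 (1.74) and Btla (0.89) are neighbours, and Cd4 (1.28) and Ptms (0.85) lie on either side of Lag3 (0.55).

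The genes most like the 3 members with the smallest p were sought among 11082 genes with a mean of at least 5.07, the median of all tested rows. Likeness was the root mean square difference between log2 levels centred on each gene's mean over the 6 arrays, a description on few arrays. Genes found in this way share the array pattern of the member by the choice itself. For Btla the nearest genes were Il13, which encodes interleukin-13 (0.15), Ets2, a transcription factor (0.17), and A430093F15Rik (0.19). Il13 was at 8.66, 8.81 and 8.14 in WT and at 9.62, 9.98 and 8.01 in PLZF_ON, with the replicate 3 arrays lowest, as for Btla. For Cd200 they were Igfbp7, an insulin-like growth factor binding protein (0.13), Dzip1 (0.18) and Olfr524 (0.23). Olfr524 is an olfactory receptor row, of the class used for the background limit, yet it was at 6.94 to 8.55, above that limit. Its 4-array difference was 1.22 (limma adjusted p = 0.117), and the source of its signal was not tested. Igfbp7 was at 5.13, 5.68 and 5.72 in WT and at 7.07, 6.86 and 6.28 in PLZF_ON, with PLZF_ON replicate 3 nearest to WT. For Tox they were Nrip1, a nuclear receptor corepressor (0.07), Rgcc, a regulator of the cell cycle (0.10), and Gm15708 (0.10).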

How the data were processed

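Gene expression was measured in iNKT cells of WT and PLZF_ON mice on 6 Affymetrix whole-transcript arrays, 3 per group, with groups taken from the titles and genotype labels. The deposited values are log2 expression levels, made with RMA per the submitters' processing notes, which name no version. RMA corrects background, applies quantile normalization and combines the probes of each row, which compresses differences of dim genes. The deposited arrays did not share 1 distribution over rows, since the SD of PLZF_ON replicate 3 was 1.79 against 1.97 to 2.01. Neither the annotation nor the genome build of the authors is given in these sources. The values were used as deposited.

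Of 41345 rows, 23521 had exactly 1 gene symbol in the platform annotation and were tested, 1814 had several and 16010 were not listed. They stood for 22180 genes, each described by the brightest of its rows (mean of 6 arrays), and 23328 rows matched the RefSeq gene table (GRCm38.p6) by Entrez number. Differences were tested two-sided with lmFit and eBayes of limma 3.58.1 (R 4.3.3), with genotype as the only term, adjusted by Benjamini-Hochberg over the 23521 rows at 0.05. The main fit used replicates 1 and 2, as the design text states, and had 2 residual and 4.1 prior degrees of freedom, and the fit over 6 arrays had 4 and 3.78. SEs and 95% intervals are limma's moderated ones. Precision is limited by the small number of arrays.

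The 10 genes, the related and marker lists, the motifs and the background limit were chosen with earlier results of these data known. Genes named from the related lists are those with the smallest p under an unadjusted 0.05, at most 4 per list. Cd274, Tnfrsf14, Lgals9, Ptpn11, Dgkz, Tox3, Tox4 and the neighbours with a larger p were named after their values were seen. List genes without a row of their own were not analysed here. The alternatives tried were omission of each array, a replicate block, a trend in the variance prior, a second quantile normalization, centring on array medians, a restriction to brighter rows, a fit and adjustment over all deposited rows, averaging all rows of a gene and, over 6 arrays, array weights. Figures were drawn with matplotlib 3.10.9.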

Additional observations from a re-analysis of the deposited data

How the results depend on the processing

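Over the 4 arrays the 10 genes kept their direction in all 107 combinations of gene and alternative, and over 6 arrays in 130 of 137. Many of these combinations could not have changed a difference, since groups are balanced and each of the 10 genes has 1 row. They are the replicate block, the variance trend, the brighter rows, all deposited rows and the averaging of rows, which bear on the p-values alone. The 7 exceptions were dim genes in the 6-array fit. Havcr2 was at -0.043 with quantile normalization again, -0.0027 with arrays centred on their medians and -0.20 with array weights, and between -0.23 and 0.20 with an array left out. Ctla4 was at -0.25 with array weights and between -0.36 (without PLZF_ON replicate 3) and 0.65 with an array left out. The array weight of PLZF_ON replicate 3 was 0.146, against 0.993 to 1.698 for the others.

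By limma 40 of 23521 rows passed over the 4 arrays and 22 over 6. With the replicate block the count over 4 arrays was 101, and 1 of the 10 genes passed, Pdcd1 (limma adjusted p = 0.0468), with 2459 rows at an unadjusted p under 0.05 against 2213 without the block. Over 6 arrays 7 of the 10 had an unadjusted p under 0.05 with it against 4 without, and 1687 of all rows against 1358. The labels do not give the numbers as a pairing. Same-numbered arrays had correlations of deviations from the group means of 0.132 over 4 arrays and of 0.092, 0.253 and 0.239 over 6, where PLZF_ON replicate 1 correlated best with WT replicate 2 (0.124). With all deposited rows the count was 0 in both fits, with 3042 and 2100 rows at an unadjusted p under 0.05. Over 6 arrays it was 5 with arrays centred on their medians and 259 with array weights, where Cd200 passed as 1 of the 10 (limma adjusted p = 0.026) and 7 of the 10, and 2414 of all rows, had an unadjusted p under 0.05. The cause of these changes was not tested.

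With an array left out of the 4, the count ran from 0 (without PLZF_ON replicate 2, 1803 rows at an unadjusted p under 0.05) to 106 (without WT replicate 2), the number of the 10 passing from 0 to 1, and the number at an unadjusted p under 0.05 from 5 to 7. Over 6 arrays the count ran from 0 (without WT replicate 1, WT replicate 2 or PLZF_ON replicate 2, with 852, 960 and 1531 rows at an unadjusted p under 0.05) to 107 (without PLZF_ON replicate 3), with 1 without WT replicate 3 and 6 without PLZF_ON replicate 1. There 0 of the 10 passed, and 2 to 7 had an unadjusted p under 0.05. Fits that leave a group of 1 array assume that it varies like the other group. Among brighter rows alone Ctla4, Havcr2 and Rnf128 gave no value.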
